A study of Rattus norvegicus with 36 samples.

Results

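The rat cerebellum was compared with 3 forebrain regions, the hippocampus, the amygdala and the anterior cortex, in sham animals that had not been exposed to blast. All 18 sham libraries of the series entered the comparison, 4 of cerebellum (numbered 10, 13, 16 and 18), 5 of hippocampus, 4 of amygdala and 5 of anterior cortex, out of 36 libraries in all; the other 18 came from blast-exposed rats. The study sequenced total RNA of these regions 6 weeks after exposure, and every sham library carries that same time point; strain and age are not given. A gene was called cerebellar when the cerebellum differed from each of the 3 regions in the same direction, each at a Benjamini-Hochberg adjusted p under 0.05 in edgeR's quasi-likelihood test. Of 26142 genes in the 4 regional tables, 16431 had enough counts to be tested.

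The cerebellar cortex is built from a small set of neuron types. Glutamatergic granule cells, which outnumber all other neurons of the brain, send parallel fibres to the dendrites of Purkinje cells, the GABAergic output neurons of the cortex, while Golgi, stellate and basket cells inhibit within the layers and Bergmann glia wrap Purkinje dendrites. The cerebellum arises from the anterior hindbrain under factors such as the engrailed, Zic and Barhl proteins, whereas hippocampus, amygdala and cortex arise from the telencephalon under Emx, Lhx2 and Dlx factors.

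Libraries held 15426786 to 23460322 counts on genes, and the cerebellar ones 17216609 to 18881931. Nothing in the labels ties a library number to its own rat, so p-values measure the spread between libraries, which may be technical. Each region came in a table of its own and the labels give no batches; region and any batch of processing cannot be told apart. In bulk tissue, fewer cells of a type and less RNA per cell cannot be told apart either. Levels are given as CPM, read counts scaled to the TMM-adjusted library size, and differences as log2 of cerebellum over region; a range of log2 differences runs over the 3 forebrain regions, with the largest of their 3 standard errors (SE) and of their 3 adjusted p-values. Since the 3 comparisons share the cerebellar libraries, their overlap is not evidence of its own.

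The cerebellum stood far from the other regions as a whole. The first principal component of log2 CPM held 55.3% of the variance and placed the cerebellar libraries at 122.72 to 130.94 and the 14 forebrain libraries at -40.64 to -32.67. Against hippocampus 4973 genes were higher (30.3% of those tested) and 5333 lower (32.5%), against amygdala 5030 (30.6%) and 5582 (34%), and against anterior cortex 5475 (33.3%) and 5785 (35.2%). By the cerebellar rule 3615 genes were higher (22%) and 3761 lower (22.9%), while 2737 (16.7%) differed from no region and 558 (3.4%) were higher than at least 1 region and lower than at least 1 other. In the raw values, 3185 genes (19.4%) had every cerebellar library above every forebrain library and 3035 (18.5%) had every one below. With TMM scaling 49% of the called genes were higher, against 62% when libraries were scaled by their totals alone, which moved the median of all genes from between -0.03 and -0.01 to between 0.05 and 0.23 on the log2 scale.

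Large differences were more often on the lower side. Requiring at least a 4-fold difference from each region left 340 higher genes (2.07%) and 780 lower genes (4.75%). Just inside that limit on the higher side lay Klhl33, Mreg and Cd27, with smallest log2 differences of 2.0076, 2.0061 and 2.0001, and outside it lay, among others, Asmt and Rif1, both at 1.9782. The 15 genes with the largest smallest difference among those above 10 CPM were, on the higher side, Pcp2, Gabra6, Cbln3, Fat2, Skor2, Crtam, En2, Lhx1, Impg1, Skor1, Ppp1r17, Hes3, Irx3, Uncx and Lhx5, while those on the lower side included Lhx2, Ddn, Fezf2, Cck, Chrm1, Kcnj4, Nrgn, Bcl11b, Emx2, Camkv, Kcnt2, Icam5 and Emx1. The higher set thus held granule and Purkinje cell genes beside the homeodomain factors En2, Lhx1, Irx3, Uncx and Lhx5, the bHLH repressor Hes3 and the corepressor Skor1, and also Crtam, an immunoglobulin-family adhesion molecule named for its place on T cells, and Impg1, a proteoglycan known from the retina.

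Crtam read 39.7, 31.3, 54.8 and 50.3 CPM in cerebellar libraries 10, 13, 16 and 18 and 0 to 0.0974 CPM (median 0) over the 14 forebrain libraries. Impg1 read 52.7, 46.4, 61.8 and 53.5 CPM, against 0 to 0.325 CPM (median 0). Both were thus present in every cerebellar library and at or near 0 in every forebrain library. Crtam had 1 count in all amygdala libraries together, where the ratio was 3270 with a 95% counting interval of 588 to 129000.

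Most listed genes of granule cells were called higher in the cerebellum. Of 20 tested members of the granule cell list, 19 were higher than in each forebrain region and 1 was lower, with a median log2 difference of 3.84 against -0.03 over all genes tested. In this list and the others of cerebellar cells, genes near 0 in the forebrain, such as Gabra6, Fat2, Pcp2 and Skor2, could pass the filter on low counts only through the cerebellum, so counts and medians describe the genes that passed and are no support for a direction. Gabra6, the GABA-A receptor subunit that marks mature granule cells, read 902, 829.5, 939 and 940.3 CPM in cerebellar libraries 10, 13, 16 and 18, and 0 to 0.752 CPM (median 0.296) in the forebrain. Fat2, a giant protocadherin of parallel fibres, read 1347, 1251, 1377 and 1255 CPM against 0 to 1.34 CPM (median 0.518). For both genes cerebellar and forebrain libraries were far from overlapping, and the 4 cerebellar values lay close together. The log2 differences of Gabra6 were 10.81 to 12.41 (largest SE 0.21, largest adjusted p 4.67e-20), and those of Fat2 10.27 to 14.45 (largest SE 0.24, largest adjusted p 3.69e-19), the larger one against the hippocampus.

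Cbln1, the secreted cerebellin of parallel fibre synapses on Purkinje cells, read 1052, 944, 995 and 906 CPM in the cerebellum against 1.82 to 24.3 CPM (median 4.34) in the forebrain, with log2 differences of 6.01 to 8.63 (largest SE 0.24, largest adjusted p 5.05e-15). Cbln3, which assembles with Cbln1, was higher by 10.71 to 11.45 (largest SE 0.17). Neurod1, a bHLH factor of granule cell differentiation, was higher by 4.02 to 6.26 (largest SE 0.16). Genes that the forebrain also held showed smaller differences. Calb2, the calcium buffer calretinin, was higher by 3.77 to 5.92 (largest SE 0.21). Reln, the extracellular guide of neuronal migration, was higher by 2.33 to 3.83 (largest SE 0.15). Gabrd, the extrasynaptic delta subunit that pairs with Gabra6, was higher by 2.38 to 3.28 (largest SE 0.11). The single member that was lower was Slc17a7, the vesicular glutamate transporter VGLUT1, which forebrain principal neurons use too. Its log2 differences were -1.54 to -0.72 (largest SE 0.10, largest adjusted p 8.45e-07).

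Of 22 tested members of the Purkinje cell list 18 were higher and 0 lower, and all 22 had a positive mean difference (median 2.55). Pcp2, a G protein modulator found in Purkinje cells, read 192, 185, 209.9 and 184 CPM in cerebellar libraries 10, 13, 16 and 18 and 0 to 0.226 CPM (median 0.0628) in the forebrain. It had 2 counts in all amygdala libraries together, a ratio of 7220 with a 95% counting interval of 2000 to 59700. Skor2, a corepressor of Purkinje cells, read 22.4, 19, 21.3 and 18.1 CPM against 0 to 0.0606 CPM (median 0), with 0 counts in amygdala and anterior cortex. Measured against a floor of 3 counts over the region's libraries it was at least 505-fold and at least 583-fold higher there. Calb1, the calcium buffer calbindin, which forebrain neurons also hold, read 629, 561, 688 and 584 CPM against 56.1 to 141 CPM (median 109.7): again every cerebellar library lay above every other, with log2 differences of 2.29 to 3.13 (largest SE 0.10, largest adjusted p 1.7e-13).

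Other Purkinje genes included a transporter, a phosphatase inhibitor and signalling proteins. Ppp1r17, a phosphatase inhibitor, was higher by 7.97 to 9.53 (largest SE 0.34). Slc1a6, a perisynaptic glutamate transporter, was higher by 4.90 to 5.68 (largest SE 0.14). In Purkinje cells Plcb4 makes inositol trisphosphate, which opens the receptor Itpr1, with Homer3 as a scaffold, and all of these were called higher. Plcb4 was higher by 1.95 to 4.02 (largest SE 0.10). Itpr1 was higher by 1.77 to 3.07 (largest SE 0.10). Homer3 was higher by 1.09 to 3.11 (largest SE 0.10). A nuclear factor of Purkinje cells followed the same direction. Rora, the nuclear receptor lost in the staggerer mouse, was higher by 1.83 to 2.66 (largest SE 0.32). The 4 members that were not called included Aldoc, Plcb3 and Foxp2, each also present in the forebrain.

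The next lists were of less common cerebellar neurons. For the inhibitory Golgi, stellate, basket and Lugaro cells 7 of 10 tested genes were higher and 1 lower (median 2.75). Slc6a5, the glycine transporter of inhibitory neurons, was higher by 2.13 to 5.79 (largest SE 0.37). Tfap2b, an AP-2 factor of inhibitory neurons, was higher by 4.68 to 8.63 (largest SE 0.35). Kit, the receptor tyrosine kinase of stellate and basket cells, was higher by 0.57 to 3.22 (largest SE 0.17). With library 16 as the sole cerebellar library the mean log2 difference of Kit was 1.69, against 1.67 with all 4, and it was not called (adjusted p 0.0769). The lower one was Grm2, which Golgi cells hold in the cerebellum and granule cells of the dentate gyrus in the hippocampus, at -1.93 to -1.25 (largest SE 0.21). All 6 listed genes of unipolar brush cells were higher (median 3.76), though some on that list, such as Calb2 and Plcb4, belong to other cerebellar cells too. Eomes, which in the cerebellum marks these cells, read 12.1, 13.5, 9.01 and 16 CPM in cerebellar libraries 10, 13, 16 and 18 against 0.0635 to 4.91 CPM (median 0.225). The forebrain maximum came from anterior cortex library 13. Log2 differences of Eomes were 3.02 to 6.25 (largest SE 0.76, largest adjusted p 5.77e-05).

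Bergmann glia gave a mixed picture, with 3 of 7 tested genes higher (42.9%, against 22% of all genes) and 1 lower (14.3%, against 22.9%). The median was 0.24. Gdf10, a growth factor of Bergmann glia, read 88.9, 81.4, 85.2 and 85.7 CPM against 2.26 to 16.9 CPM (median 10.7), with no overlap and log2 differences of 2.44 to 4.56 (largest SE 0.14, largest adjusted p 8.27e-13). Wif1, a Wnt inhibitor, was higher by 1.41 to 2.03 (largest SE 0.22). Fabp7, a fatty acid carrier of radial and Bergmann glia, was lower, with log2 differences of -1.5 to -1.33 (largest SE 0.14).

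**Figure D1:**
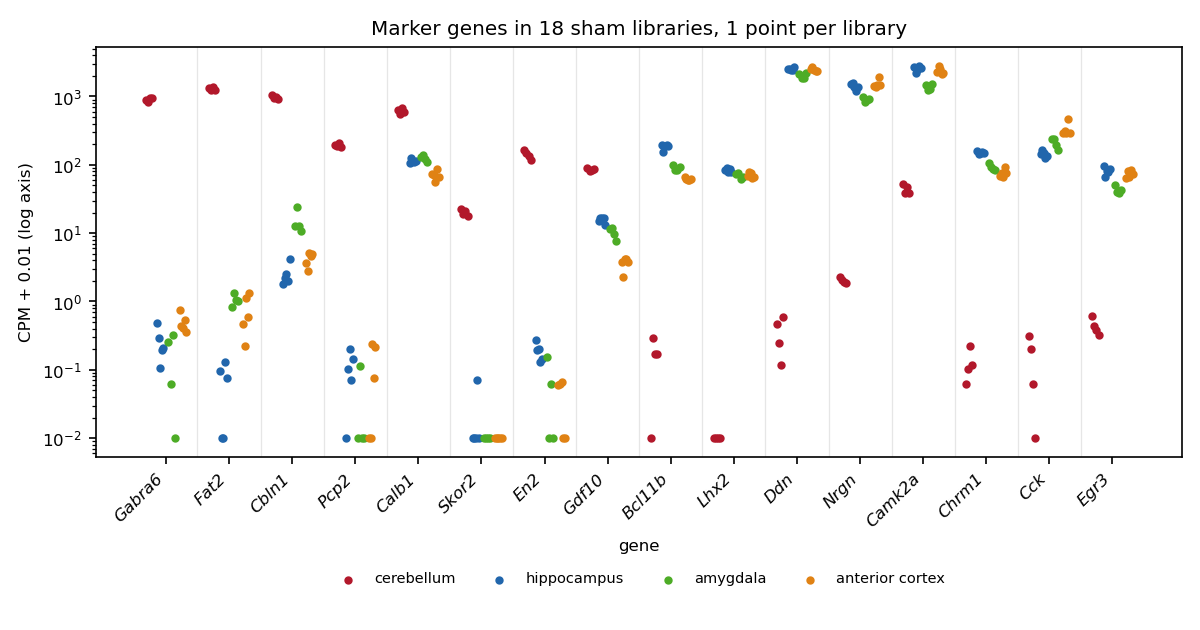
Level of 16 genes in each sham library (vertical log axis, CPM + 0.01; 1 point per library, 4 cerebellum, 5 hippocampus, 4 amygdala and 5 anterior cortex libraries). The first 8 genes lie higher in all 4 cerebellar libraries than in every forebrain library, and the last 8 lie lower; points at the bottom of the axis had 0 counts.

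The 250 bases before the start of 4 of the most cerebellar genes and 2 of the genes most depleted there are shown so that the sequence around their starts can be read beside their levels. They are RefSeq sequences of the rat build GRCr8, at chr12:6481308-6481557 (- strand), chr10:27327235-27327484 (- strand), chr10:39956903-39957152 (- strand), chr18:72679199-72679448 (+ strand), chr3:42535494-42535743 (+ strand) and chr15:15203943-15204192 (+ strand), written on the strand of the gene from 5′ to 3′. Capitals mark a match to 1 of 5 searched motifs on either strand: the E-box CAGATG of NeuroD and Atonal factors, the homeodomain core TAATTA, the nuclear receptor half-site AGGTCA, the Ebf palindrome and the TATA box TATAAA.
Pcp2: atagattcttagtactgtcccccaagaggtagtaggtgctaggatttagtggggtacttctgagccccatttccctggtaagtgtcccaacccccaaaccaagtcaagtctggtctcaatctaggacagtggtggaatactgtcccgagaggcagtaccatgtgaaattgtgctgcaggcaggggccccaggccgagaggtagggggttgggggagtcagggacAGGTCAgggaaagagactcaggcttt
Gabra6: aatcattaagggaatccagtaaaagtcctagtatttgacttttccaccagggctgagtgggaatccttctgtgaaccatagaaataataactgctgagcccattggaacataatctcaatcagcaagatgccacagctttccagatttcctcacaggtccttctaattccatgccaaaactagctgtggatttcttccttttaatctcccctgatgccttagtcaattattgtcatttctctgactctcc
Fat2: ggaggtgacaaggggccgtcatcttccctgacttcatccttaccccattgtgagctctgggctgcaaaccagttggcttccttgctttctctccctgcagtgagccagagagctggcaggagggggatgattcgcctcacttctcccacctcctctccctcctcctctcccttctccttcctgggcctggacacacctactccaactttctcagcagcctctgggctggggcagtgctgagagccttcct
Skor2: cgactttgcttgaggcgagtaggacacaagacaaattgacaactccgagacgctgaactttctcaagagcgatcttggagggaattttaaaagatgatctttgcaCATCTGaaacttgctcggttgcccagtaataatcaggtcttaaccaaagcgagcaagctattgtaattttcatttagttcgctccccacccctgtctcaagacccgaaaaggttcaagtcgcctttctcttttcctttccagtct
Lhx2: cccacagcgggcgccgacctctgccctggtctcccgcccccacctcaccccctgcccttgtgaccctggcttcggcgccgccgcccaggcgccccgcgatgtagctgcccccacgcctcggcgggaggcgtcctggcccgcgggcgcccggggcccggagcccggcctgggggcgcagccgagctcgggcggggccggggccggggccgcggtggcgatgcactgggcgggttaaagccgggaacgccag
Fezf2: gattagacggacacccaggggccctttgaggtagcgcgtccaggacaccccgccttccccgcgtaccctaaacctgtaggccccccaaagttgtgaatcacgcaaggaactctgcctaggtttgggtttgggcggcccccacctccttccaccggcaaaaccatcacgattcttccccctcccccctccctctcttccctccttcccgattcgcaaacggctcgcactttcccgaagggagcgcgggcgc
Pcp2 held AGGTCA 26 bases before its start, and Skor2 held the E-box, read on the other strand as CATCTG, 145 bases before its start; the other 4 windows held none of the motifs. A match is a description and not a site. Promoter windows were matched by symbol for 11241 of the 16431 tested genes. Over these, AGGTCA stood in 10.7%, against 9.9% of the 202 windows of genes at least 4-fold higher in the cerebellum and 12% of the 483 of genes at least 4-fold lower. The E-box stood in 9.67% of all windows, 11.9% of the higher and 12.6% of the lower ones, TAATTA in 2.13%, 1.98% and 4.14%, and TATAAA in 6.72%, 7.43% and 11.8%. The Ebf palindrome stood in 0.801%, 0.495% and 1.45%. The median GC content was 60.0% over all windows, 58.0% in the higher and 59.2% in the lower set, and the Lhx2 window shown had 80.8% against 41.2% for Gabra6.

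Transcription factors that pattern the embryonic brain were divided by region. Of 22 tested hindbrain and midbrain factors 20 were higher in the cerebellum and 0 lower, with a median log2 difference of 5.79; 11 more of the 33 listed did not pass the filter on low counts. Factors near 0 in every forebrain library, such as En2, Tlx3 and Lhx1, could again pass only through the cerebellum. Of 30 forebrain factors 23 were lower and 1 higher, with a median of -5.46, or -5.12 with genes at 0 counts set to their bound. Those near 0 in the cerebellum, such as Lhx2 and Fezf2, could pass the filter only through the forebrain. Counts and medians of both lists describe the genes that passed and are no support for a direction. En2, an engrailed factor of the midbrain and hindbrain border, read 166, 147, 135 and 119 CPM in cerebellar libraries 10, 13, 16 and 18 and 0 to 0.26 CPM (median 0.0545) in the forebrain. Zic1 read 675, 606, 601 and 651 CPM against 8.08 to 29.6 CPM (median 15.7), and Tlx3, a homeodomain factor of hindbrain excitatory neurons, 8.59, 10.1, 7.68 and 9.82 CPM against 0 counts in all 14 forebrain libraries. No forebrain library reached the lowest cerebellar one for any of these. Tlx3 was at least 227-fold higher than in each region, from a floor of 3 counts per region.

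The factors of granule cells and their precursors included Barhl and Zic genes. Barhl1, a homeodomain factor of granule cells, was higher by 6.25 to 6.95 (largest SE 0.45). Zic2, a zinc finger factor, was higher by 3.56 to 4.46 (largest SE 0.14). Zic4, the partner of Zic1, was higher by 3.29 to 4.18 (largest SE 0.20). Other factors included Iroquois and Ebf genes. Irx3, an Iroquois factor, was higher by 7.05 to 7.49 (largest SE 0.66). Ebf1, a helix-loop-helix factor, was higher by 2.51 to 3.68 (largest SE 0.24). Ebf2, a factor of Purkinje subsets, was higher by 3.16 to 5.50 (largest SE 0.36). Ebf3 was higher by 4.46 to 5.31 (largest SE 0.53). Lhx1 and Lhx5, LIM factors of Purkinje cells that had few counts in the forebrain, had smallest log2 differences of 9.24 and 6.64. Lmx1a, a roof plate factor, read 3.33, 6.66, 1.55 and 4.01 CPM in cerebellar libraries 10, 13, 16 and 18 against 0 to 0.983 CPM (median 0.182), and was higher by 3.36 to 5.69 (largest SE 0.66). Its cerebellar libraries stood in the same order as for the choroid plexus gene Ttr, at 482, 2256, 2.03 and 1000.2 CPM. Its mean log2 difference of 4.43 became 2.63 with a choroid plexus score as covariate, still called (adjusted p 0.00124). The score was higher in each cerebellar library than in any of amygdala or anterior cortex. It can therefore take up part of any cerebellar difference. Whether choroid plexus tissue adds to the difference in Lmx1a was not tested. With library 16 as the sole cerebellar library, 1.55 CPM against a forebrain maximum of 0.983 CPM, the difference was 3.11 and was not called (adjusted p 0.0639).

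On the forebrain side, Lhx2, the selector gene of the cortex, had 0 counts in all 4 cerebellar libraries and 62.2 to 88.5 CPM (median 75.2) in the forebrain. It was at least 2170-fold lower than in hippocampus, 1820-fold lower than in amygdala and 1860-fold lower than in anterior cortex, from a floor of 3 counts over the cerebellar libraries. Fezf2, the determinant of subcerebral projection neurons, had 1 count in the cerebellum, a level 1790 times lower than in hippocampus (95% counting interval 322 to 70900). Bcl11b, which acts downstream of Fezf2, read 0, 0.283, 0.16 and 0.158 CPM in the cerebellum against 59.4 to 197 CPM (median 88.3), with log2 differences of -10.18 to -8.61 (largest SE 0.19, largest adjusted p 2.86e-18). Tbr1, of deep cortical layers, was lower, with log2 differences of -6.06 to -5.21 (largest SE 0.19). Factors of forebrain interneurons were low as well. Dlx1 was lower, with log2 differences of -7.97 to -7.05 (largest SE 0.34). Lhx6, which acts after the Dlx factors, was lower, with log2 differences of -6.59 to -5.55 (largest SE 0.44). The 1 forebrain factor that was higher in the cerebellum was Cux1, known from upper cortical layers, at 0.56 to 2.03 (largest SE 0.11, largest adjusted p 9.33e-05).

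**Figure D2:**
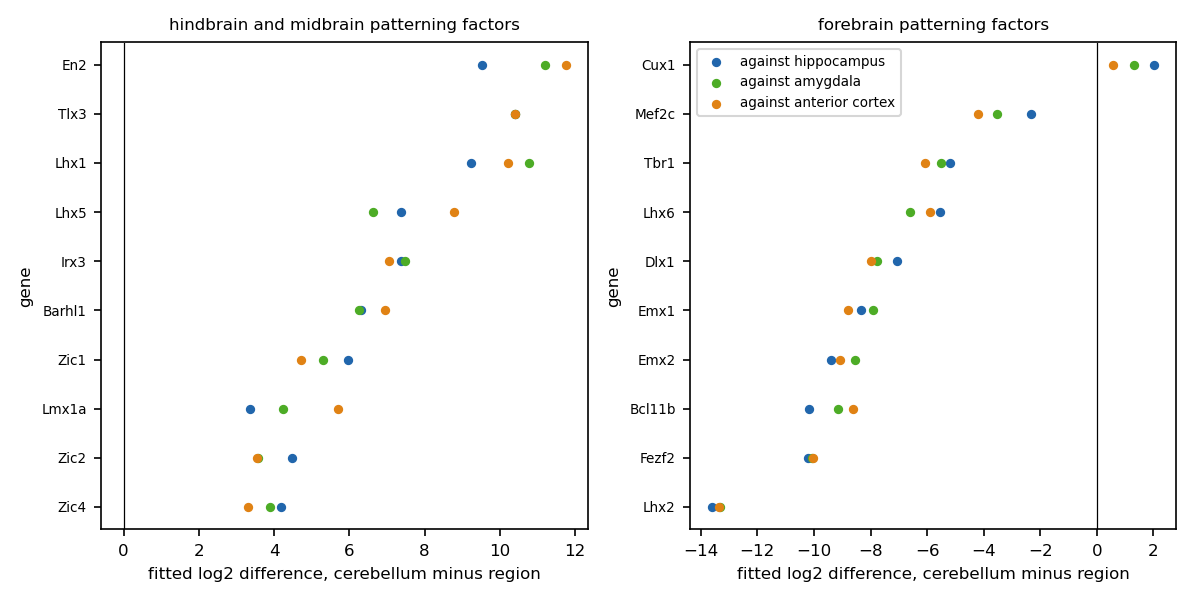
Fitted log2 difference of cerebellum minus each forebrain region (horizontal axis; blue hippocampus, green amygdala, orange anterior cortex) for the hindbrain and midbrain factors (left) and forebrain factors (right) that the text names, 1 row per gene. The hindbrain and midbrain factors drawn lie right of 0, and the forebrain factors drawn, but Cux1, lie left of it. All genes drawn were called, so the split follows from their choice. Of the factors tested, 2 of 22 hindbrain and midbrain and 6 of 30 forebrain ones were not called. Where a region had 0 counts, as Lhx2 in the cerebellum, the fitted value depends on the model and its size is not a measurement.

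Of 18 tested genes of forebrain excitatory neurons 15 were lower and 0 higher (median -5.43). Here and in the lists that follow, genes near 0 in the cerebellum, such as Ddn, Vip, Cck and Chrm1, could pass the filter only through the forebrain. Such counts and medians describe the genes that passed and are no support for a direction. Ddn, dendrin, a protein of forebrain dendrites, read 0.455, 0.236, 0.107 and 0.581 CPM in cerebellar libraries 10, 13, 16 and 18 and 1863 to 2712 CPM (median 2439.6) in the forebrain. Nrgn, the postsynaptic calmodulin buffer neurogranin, read 2.27, 2.03, 1.92 and 1.85 CPM against 818 to 1925 CPM (median 1382). Camk2a, the alpha subunit of the kinase of synaptic potentiation, read 52.1, 38.7, 47.3 and 38.1 CPM against 1248 to 2827 CPM (median 2241). In all 3 the groups were widely apart, and Ddn was below 1 CPM in every cerebellar library. Log2 differences were -12.81 to -12.50 (largest SE 0.16, largest adjusted p 1.01e-21) for Ddn, -9.55 to -8.79 (largest SE 0.15, largest adjusted p 4.89e-20) for Nrgn and -5.86 to -4.98 (largest SE 0.13, largest adjusted p 2.07e-17) for Camk2a. Icam5, the adhesion molecule telencephalin, was lower, with log2 differences of -9.74 to -8.14 (largest SE 0.18). Camkv, a CaM kinase-like pseudokinase, was lower, with log2 differences of -8.78 to -8.45 (largest SE 0.10).

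Genes of forebrain inhibitory neurons were mostly lower by count. Of 19 tested genes of this list 15 were lower (78.9%, against 22.9% of all genes) and 3 higher (15.8%, against 22%), with a median of -4.83. The 3 higher ones were Gad1, Slc32a1 and Cnr1, which cerebellar neurons also use. Gad1, which makes GABA, read 523, 457, 457 and 448 CPM against 108 to 233 CPM (median 159), with every cerebellar library above every forebrain library and log2 differences of 1.14 to 1.91 (largest SE 0.10, largest adjusted p 4.95e-09). Slc32a1, the vesicular GABA transporter, was higher by 0.99 to 1.80 (largest SE 0.09). Cnr1, the cannabinoid receptor, was higher by 1.31 to 1.99 (largest SE 0.11). The summed level of the list was higher in the cerebellum all the same, at 1511.4 to 1723.2 CPM against 676.5 to 1234.6 CPM over the forebrain libraries. Pvalb, the calcium buffer parvalbumin, which marks a forebrain interneuron class and also Purkinje cells and stood on the Purkinje list, was higher by 3.58 to 4.62 (largest SE 0.14). Peptides shown here were lower. Vip was lower, with log2 differences of -7.91 to -6.29 (largest SE 0.29). Tac1, the substance P precursor, was lower, with log2 differences of -7.73 to -4.91 (largest SE 0.47). Sst, somatostatin, was lower, with log2 differences of -3.12 to -1.28 (largest SE 0.15). Of 14 striatal projection neuron genes 6 were lower (42.9%, against 22.9% of all genes) and 0 higher (0%, against 22%). Pdyn led the lower ones, at -8.02 to -6.10 (largest SE 0.23).

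Receptor families differed in which members they held. To compare members with each other, CPM was divided by the gene length that the authors deposited, so each share depends on that length. Gabra6 made up 64.4% ± 1.15 (SD, n = 4) of the GABA-A alpha subunits in the cerebellum and at most 0.121% in any forebrain region. Gabra5, the extrasynaptic subunit of hippocampal pyramidal cells, read 0.303, 0.85, 0.587 and 1.37 CPM in cerebellar libraries 10, 13, 16 and 18 against 47.5 to 226 CPM (median 104). It held 26.9% ± 3.19 (SD, n = 5) of the alpha pool in hippocampus and 0.0423% in the cerebellum. Of the 15 tested GABA-A genes 5 were higher (33.3%, against 22% of all genes) and 8 lower (53.3%, against 22.9%). Their summed level was 2244.9 to 2470.5 CPM in the cerebellum against 806.6 to 1234 CPM in the forebrain. Beside Gabra6 and Gabrd, the higher ones included a subunit of common synaptic receptors. Gabrb2 was higher by 1.16 to 1.72 (largest SE 0.18).

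Among NMDA receptors, Grin2c, the granule cell GluN2 subunit, read 803, 689, 796 and 684 CPM in the cerebellum against 169.9 to 260.0 CPM (median 194), and Grin2b, the forebrain subunit of slow currents, 3.13, 2.22, 2.35 and 2.64 CPM against 40.2 to 70.5 CPM (median 50.6). Neither gene's cerebellar and forebrain libraries overlapped, in opposite directions. Log2 differences were 1.70 to 2.03 (largest SE 0.10, largest adjusted p 2.33e-12) for Grin2c and -4.39 to -4.25 (largest SE 0.15, largest adjusted p 2.49e-15) for Grin2b. Grin2c held 93.7% ± 0.629 (SD, n = 4) of the GluN2 pool in the cerebellum and 48.8% ± 5.43 (SD, n = 5), 59.5% ± 3.67 (SD, n = 4) and 66.2% ± 2.91 (SD, n = 5) in hippocampus, amygdala and anterior cortex. Over the list 2 of 7 genes were higher (28.6%, against 22% of all genes) and 3 lower (42.9%, against 22.9%).

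Of 13 AMPA receptor and auxiliary subunit genes 3 were higher (23.1%, near the 22% of all genes) and 7 lower (53.8%, against 22.9%). Gria4 read 605, 513, 594 and 599.6 CPM in the cerebellum against 66.1 to 124 CPM (median 83.4) and held 42.6% ± 1.52 (SD, n = 4) of the AMPA subunits there, against 3.48% to 7.99% in the forebrain. Gria4 differed by 2.31 to 2.96 (largest SE 0.07, largest adjusted p 4.92e-16), without overlap. Gria2, which makes the channel impermeable to calcium, was lower, with log2 differences of -1.34 to -0.56 (largest SE 0.06). Gria3 was lower, with log2 differences of -1.51 to -1.37 (largest SE 0.06). The auxiliary subunits, which traffic and gate the receptor, also went both ways. Cacng2, stargazin, named after an ataxic mouse, was higher by 0.67 to 1.37 (largest SE 0.08). Cacng3 was lower, with log2 differences of -4.27 to -3.93 (largest SE 0.11). Cacng8 was lower, with log2 differences of -5.08 to -3.31 (largest SE 0.11). Cnih2, a cornichon protein of hippocampal receptors, was lower, with log2 differences of -3.99 to -2.83 (largest SE 0.08).

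Of 8 metabotropic receptor genes 2 were higher (25%, near the 22% of all genes) and 4 lower (50%, against 22.9%). Their summed level was 789.8 to 891.6 CPM in the cerebellum and 274 to 401.7 CPM in the forebrain. Most of the cerebellar sum, with a median of 819.4 CPM, came from Grm4 alone, with a mean of 517.6 CPM. Grm4, the presynaptic receptor of parallel fibres, read 549, 489, 526 and 506 CPM against 5.21 to 29.1 CPM (median 14), and Grm5, a Gq-coupled receptor of forebrain neurons, 2.73, 2.64, 4.37 and 3.48 CPM against 57.2 to 118 CPM (median 73.5). Grm4 was above and Grm5 below every forebrain library in all 4 cerebellar libraries, with log2 differences of 4.40 to 5.96 (largest SE 0.20, largest adjusted p 1.03e-14) and -4.87 to -4.18 (largest SE 0.19, largest adjusted p 1.04e-13). Of 9 kainate and delta receptor genes 4 were higher and 4 lower (44.4% each, against 22% and 22.9% of all genes). Neto1, a kainate receptor partner, was lower, with log2 differences of -6.06 to -4.67 (largest SE 0.16). Grid1, a delta receptor, was lower, with log2 differences of -1.53 to -1.07 (largest SE 0.09). Among cerebellins, Cbln1 and Cbln3 made up 59.3% ± 0.782 and 40.6% ± 0.769 (SD, n = 4) of the family in the cerebellum, and Cbln2, the largest share in hippocampus and anterior cortex, differed by -8.31 to -5.28 (largest SE 0.27). For glycine signalling 3 of 8 genes were higher (37.5%, against 22% of all genes) and 1 lower (12.5%, against 22.9%).

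Signalling enzymes also differed in their members. Plcb4 held 72.4% ± 1.66 (SD, n = 4) of phospholipase C beta in the cerebellum and 5.8% to 23.7% in the forebrain, where Plcb1 held 61.1% to 82.5%. Camk2a held 7.89% ± 0.808 (SD, n = 4) of the CaMKII pool in the cerebellum against 78.6% to 87.5% in the forebrain. In the cerebellum Camk2b held 64.3% ± 0.536 and Camk2d 26.9% ± 1.32 (SD, n = 4) of it. The forebrain share of Camk2b was 10.4% to 21%. Its larger cerebellar share is not a higher level against each region. Per kb Camk2b read 236 CPM in cerebellum and 449, 177 and 184 CPM in hippocampus, amygdala and anterior cortex. Camk2a read 29.1 CPM per kb in cerebellum against 916 to 1690 CPM in the forebrain. Over 38 genes of calcium and calmodulin signalling 15 were higher (39.5%, against 22% of all genes) and 12 lower (31.6%, against 22.9%). Atp2a3, a calcium pump of the endoplasmic reticulum that Purkinje cells express, read 403, 346, 439.8 and 359 CPM in cerebellar libraries 10, 13, 16 and 18 against 4.12 to 10.9 CPM (median 7.76), with no overlap and log2 differences of 5.25 to 6.33 (largest SE 0.14, largest adjusted p 2.79e-17). Camk4, the nuclear kinase of granule cells, was higher by 1.63 to 2.24 (largest SE 0.16). Camkk1, a kinase that activates Camk4, was lower, with log2 differences of -3.33 to -1.92 (largest SE 0.08). Over the 105 comparisons of family shares, 100 had a Benjamini-Hochberg adjusted p under 0.05 in a two-sided exact permutation test over libraries; the smallest p such a test can give is 0.00794 against 5 libraries and 0.0286 against the 4 of amygdala. Shares within a family sum to the whole, so these are not 105 separate tests, and in the families of 2 members both give the same p. The 5 that did not were the share of Plcb3 against each region and those of Slc17a6 and Slc17a7 against amygdala.

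**Figure D3:**
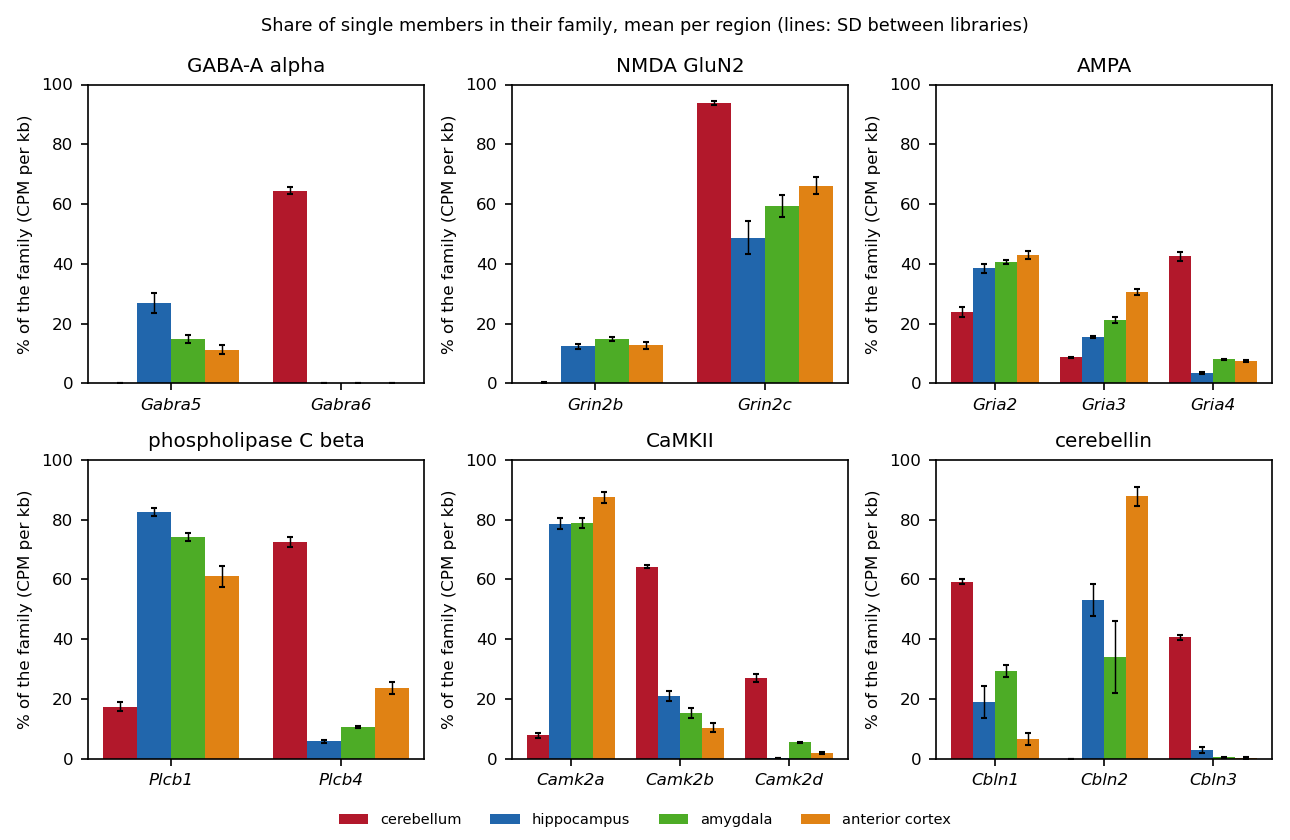
Share of single genes in the summed CPM per kb of all members of their family (vertical axes, percent) in cerebellum, hippocampus, amygdala and anterior cortex, for 6 families; bars are means over 4, 5, 4 and 5 libraries, and lines show the SD between libraries. Shares do not add up to the whole, since some members of a family are not drawn. Gabra6, Grin2c, Gria4, Plcb4 and Camk2b have their largest share in the cerebellum, as do Cbln1 and Cbln3 together. A larger share is not a higher level: the CPM per kb of Camk2b was higher in hippocampus than in cerebellum.

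Ion channel genes differed in both directions. Of 56 potassium channel genes 16 were higher (28.6%, against 22% of all genes) and 22 lower (39.3%, against 22.9%), while the summed level of the list was 5795.2 to 6872.3 CPM in the cerebellum and 3084.3 to 4030.9 CPM in the forebrain, without overlap. Kcnc1, a Kv3 channel of fast-firing neurons, read 930.4, 763, 855 and 828 CPM in the cerebellum against 79.8 to 116 CPM (median 102), without overlap, and differed by 2.99 to 3.08 (largest SE 0.09, largest adjusted p 1.88e-16). Kcnj12, an inward rectifier, was higher by 3 to 3.78 (largest SE 0.11). Kcnk3, the leak channel TASK-1, was higher by 2.48 to 4.49 (largest SE 0.16). Examples on the lower side were as follows. Kcnj4, an inward rectifier of forebrain dendrites, was lower, with log2 differences of -9.27 to -8.80 (largest SE 0.27). Kcnq5, an M current subunit, was lower, with log2 differences of -5.67 to -5.04 (largest SE 0.17). Kcnf1, a silent subunit, was lower, with log2 differences of -8.23 to -5.16 (largest SE 0.38).

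Of 27 sodium and calcium channel genes 10 were higher (37%, against 22% of all genes) and 8 lower (29.6%, against 22.9%). The pore gene of the P/Q-type calcium channel of Purkinje cells was higher, and auxiliary subunits of calcium channels were found on both sides. Cacna1a, the pore gene, was higher by 0.93 to 1.77 (largest SE 0.10). Cacna2d2, an auxiliary subunit mutated in ataxic mice, was higher by 1.58 to 2.76 (largest SE 0.10). Cacnb4, a beta subunit, was higher by 1.63 to 2.33 (largest SE 0.14). Cacnb1, also a beta subunit, was lower, with log2 differences of -2.34 to -2.08 (largest SE 0.08). T-type channels went both ways. Cacna1g was higher by 1.45 to 2.21 (largest SE 0.11). Cacna1h, the other T-type gene named here, read 4.8, 5.05, 2.93 and 4.22 CPM in the cerebellum against 101 to 339.8 CPM (median 139.8), a log2 difference of -6.19 to -4.62 (largest SE 0.12, largest adjusted p 2.28e-17). Scn3b, a sodium channel beta subunit, was lower, with log2 differences of -4.61 to -2.30 (largest SE 0.12).

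Of 50 genes of the presynaptic release machinery 13 were higher (26%, near the 22% of all genes) and 19 lower (38%, against 22.9%), with paralogs on both sides. Syt2, a fast calcium sensor of hindbrain synapses, read 409, 343, 369 and 357 CPM in cerebellar libraries 10, 13, 16 and 18 and 4.8 to 20.9 CPM (median 7.47) in the forebrain, with log2 differences of 4.63 to 6.05 (largest SE 0.21, largest adjusted p 7.54e-15). With Syt1 lower at -1.35 to -0.89 (largest SE 0.08), Syt2 held 50.6% ± 1.92 (SD, n = 4) of the pair in the cerebellum and 0.624% to 2.22% elsewhere. Vamp1 held 42.9% ± 1.4 (SD, n = 4) of synaptobrevins Vamp1 and Vamp2 in the cerebellum and 11.3% to 18.7% in the forebrain. Cplx1 held 57.6% ± 3.21 (SD, n = 4) of complexins Cplx1 and Cplx2, against 29.2% to 38.4%. Priming, fusion and sensor genes were found on both sides. Unc13c, a priming factor of granule cells, was higher by 1.47 to 3.16 (largest SE 0.23). Stx1a, a syntaxin of the fusion complex, was lower, with log2 differences of -4.28 to -2.42 (largest SE 0.10). Syt17 was lower, with log2 differences of -6.50 to -6.19 (largest SE 0.17).

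Postsynaptic scaffolds, activity genes and modulatory receptors were mostly lower. Of 18 scaffold genes 11 were lower (61.1%, against 22.9% of all genes) and 2 higher (11.1%, against 22%), with a median of -1.10. Dlg4, the scaffold PSD-95, was lower, with log2 differences of -1.81 to -1.23 (largest SE 0.07). Of 24 immediate early genes 13 were lower (54.2%, against 22.9%) and 1 higher (4.17%, against 22%), with a median of -1.41. Egr3 read 0.606, 0.425, 0.373 and 0.317 CPM in the cerebellum against 38.9 to 95.3 CPM (median 70.3), every cerebellar library below 1 CPM, with log2 differences of -7.54 to -6.62 (largest SE 0.18, largest adjusted p 6.56e-17). Egr1 was lower, with log2 differences of -1.67 to -1.16 (largest SE 0.21). Fosb was lower, with log2 differences of -3.40 to -3.11 (largest SE 0.35).

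Of 25 neuropeptide precursors 15 were lower (60%, against 22.9% of all genes) and 1, Gal, was higher (4%, against 22%). Gal differed by 1.72 to 3.44 (largest SE 0.42). All 4 cerebellar libraries, at 3.38, 4.96, 1.87 and 3.27 CPM, lay above its forebrain maximum of 1.59 CPM. With the choroid plexus score as covariate the mean log2 difference of Gal was 1.75, against 2.44 without, and it was not called (adjusted p 0.124). Since the score itself differs between regions, it can take up part of any cerebellar difference, and a cause was not tested. Cck, cholecystokinin, read 0.303, 0.189, 0.0533 and 0 CPM in the cerebellum against 128 to 472 CPM (median 215), and differed by -11.15 to -9.93 (largest SE 0.31, largest adjusted p 3.23e-16). Of 33 monoamine and acetylcholine receptors 20 were lower (60.6%, against 22.9%) and 1 higher (3.03%, against 22%), with a median of -1.86. Chrm1, the M1 muscarinic receptor, read 0.0505, 0.0945, 0.213 and 0.106 CPM against 67 to 159 CPM (median 93.6), and differed by -10.28 to -9.29 (largest SE 0.19, largest adjusted p 6.73e-19). Both genes were near 0 in every cerebellar library. Htr1a, a serotonin receptor, was lower, with log2 differences of -8.28 to -5.33 (largest SE 0.41). Htr2a, also a serotonin receptor, was lower, with log2 differences of -5.87 to -3.52 (largest SE 0.25). Chrm3, a muscarinic receptor, was lower, with log2 differences of -4.31 to -3.58 (largest SE 0.15). Of 11 cannabinoid and opioid genes 4 were lower (36.4%, against 22.9% of all genes) and 1, Cnr1, higher (9.09%, against 22%). Of 9 neurotrophin genes 3 were lower (33.3%, against 22.9%) and 2 higher (22.2%, the background share). Ngfr was among the higher ones, at 2.49 to 3.99 (largest SE 0.35).

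**Figure D4:**
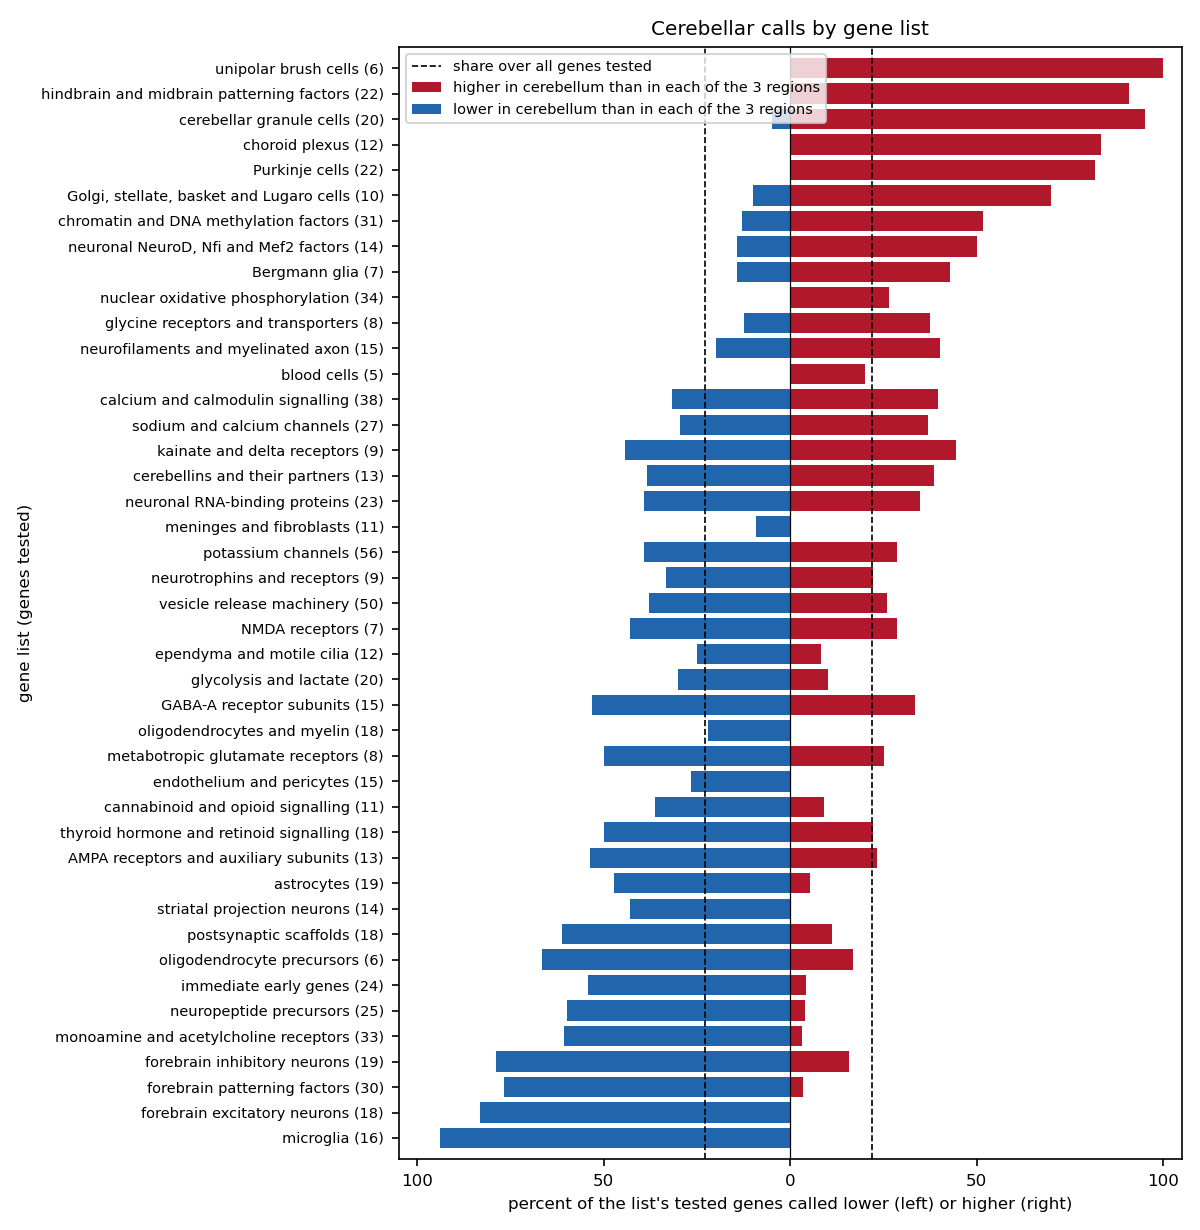
Percent of each list's tested genes called lower (blue, to the left) or higher (red, to the right) in cerebellum than in each of the 3 forebrain regions, for 43 gene lists with the number of genes tested in brackets. Dashed lines mark the shares over all 16431 genes, 22% higher and 22.9% lower; unipolar brush cell, granule cell, hindbrain, choroid plexus and Purkinje cell lists lie at the top, and microglia and forebrain neuron lists at the bottom.

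Microglial genes were lower in the cerebellum. Of 16 tested microglial genes 15 were lower (93.8%, against 22.9% of all genes) and 0 higher (0%, against 22%). The median was -1.87, and all 16 had a negative mean difference. Their summed level was 225.1 to 254.0 CPM over the cerebellar libraries, 463.1 to 582.2 in hippocampus, 616.9 to 810.1 in amygdala and 794.7 to 1110.0 in anterior cortex, so that the cerebellar range lay below every other. Csf1r, the receptor that microglia need to survive, read 33.2, 33.6, 31.7 and 36.2 CPM in cerebellar libraries 10, 13, 16 and 18 and 82.3 to 195 CPM (median 132) in the forebrain. Tmem119, a membrane protein of resident microglia, read 3.18, 3.26, 2.29 and 4.44 CPM against 7.88 to 31 CPM (median 17). Log2 differences were -2.37 to -1.41 (largest SE 0.10, largest adjusted p 5.73e-11) for Csf1r and -2.87 to -1.83 (largest SE 0.24, largest adjusted p 9.05e-07) for Tmem119, and 15 of 16 were lower, 0 higher, also when libraries were scaled by their totals alone.

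Astrocyte genes were lower in 9 of 19 cases (47.4%, against 22.9% of all genes) and higher in 1 (5.26%, against 22%). The median was -0.54. By library totals alone the counts were 6 and 2. Gfap, the astrocyte filament, read 699, 658, 744 and 599 CPM against 613 to 1163 CPM (median 801), overlapping, and was not called (largest adjusted p 0.809). Slc1a2, the glutamate transporter GLT-1, read 68.9, 61.3, 62.1 and 62.5 CPM against 233 to 744 CPM (median 436), without overlap, and differed by -3.26 to -2.60 (largest SE 0.18, largest adjusted p 7.31e-11). Gja1, the gap junction protein connexin 43, was lower, with log2 differences of -1.75 to -1.36 (largest SE 0.12). Slc4a4, a bicarbonate transporter, was higher by 1.01 to 1.57 (largest SE 0.12). Oligodendrocyte and myelin genes gave 4 lower and 0 higher of 18 (median 0.05), against 22.9% lower and 22% higher over all genes, while precursor genes gave 4 lower and 1 higher of 6, with Pdgfra at -1.89 to -1.16 (largest SE 0.11). Endothelial and pericyte genes gave 4 lower of 15, or 26.7%, near that background, and 0 higher, against 22% of all genes. Only 1 of the 15 had a positive mean difference (median -0.64, against -0.03 over all genes). Their summed level was 424.1 to 456.4 CPM in the cerebellum and 480.2 to 1162.6 CPM in the forebrain, without overlap.

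Choroid plexus genes were higher by the same rule in 10 of 12 cases (83.3%, against 22% of all genes), with a median of 4.40. Some, such as Sostdc1 and Tmem72 with forebrain medians of 0.256 and 0.27 CPM, may have passed the filter through the cerebellum. The count and median therefore describe the genes that passed and are no support for a direction. Levels of choroid plexus genes differed widely between the cerebellar libraries. Ttr, transthyretin, the main secreted protein of this epithelium, read 482, 2256, 2.03 and 1000.2 CPM in cerebellar libraries 10, 13, 16 and 18, and 0.158 to 464 CPM (median 5.4) in the forebrain, where the maximum was hippocampus library 12. Cerebellar library 16 therefore lay at a forebrain level, library 10 just above the forebrain maximum and libraries 13 and 18 well above it. The summed list ran from 36 to 2718.7 CPM in cerebellum, 14.2 to 547.5 in hippocampus, 14 to 28.4 in amygdala and 9.3 to 20.1 in anterior cortex. Log2 differences of Ttr were 3.14 to 9.84 (largest SE 1.72, largest adjusted p 0.0208), and without cerebellar library 13 it was not called (mean log2 difference 5.82, adjusted p 0.0997). Over the whole table, a fit with a choroid plexus score as covariate called 3060 genes higher and 3277 lower, and a fit with library 16 as the sole cerebellar library called 2486 and 2681. In library 16 itself Gabra6, Pcp2, Lhx2 and Ddn stood at the level of the other 3 cerebellar libraries. Ependymal genes gave 1 higher and 3 lower of 12, meningeal genes 0 and 1 of 11, and blood cell genes 1 and 0 of 5; the 25% of ependymal genes that were lower and the 20% of blood cell genes that were higher lay near the 22.9% and 22% of all genes.

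**Figure D5:**
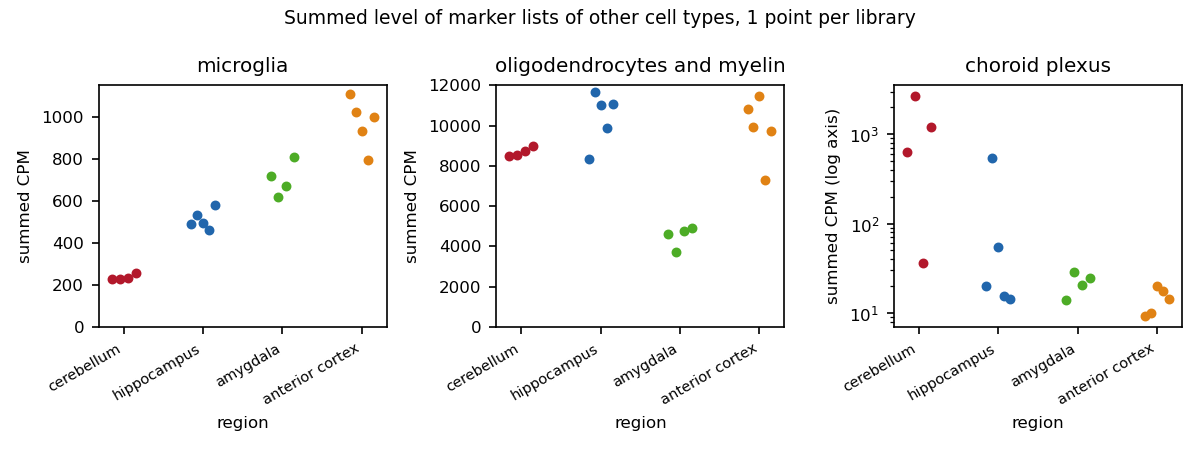
Summed CPM of the microglial (left), oligodendrocyte and myelin (middle) and choroid plexus lists (right, log axis) in each of the 18 sham libraries, 1 point per library, by region. Microglial sums are lowest in cerebellum, at 225.1 to 254.0 CPM; choroid plexus sums range from 36 to 2718.7 CPM over the 4 cerebellar libraries.

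Lists of energy metabolism had medians close to that of all genes. For oxidative phosphorylation the share of higher genes was near the background, and the share of lower genes was below it. Of 34 nuclear genes of oxidative phosphorylation 9 were higher (26.5%, against 22% of all genes) and 0 lower (0%, against 22.9%). The median was 0.11. The higher count was 16 by library totals alone and 2 with the choroid plexus score as covariate. Atp5f1a, the alpha subunit of ATP synthase, read 778, 737, 767 and 717 CPM against 486 to 594 CPM (median 541), without overlap, and differed by 0.46 to 0.48 (largest SE 0.06, largest adjusted p 7.44e-07). Of 20 glycolysis and lactate genes 2 were higher (10%, against 22% of all genes) and 6 lower (30%, against 22.9%). By library totals alone these counts became 5 and 3. Ldha, which makes lactate, read 108, 108, 92.4 and 87.5 CPM against 201 to 319 CPM (median 259.8) and differed by -1.46 to -1.24 (largest SE 0.13, largest adjusted p 2.8e-08), and every cerebellar library was below every forebrain library.

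Chromatin and DNA methylation factors were higher in 16 of 31 cases (51.6%, against 22% of all genes) and lower in 4 (12.9%, against 22.9%). The median was 0.26. Chd7, a chromatin remodeller that granule cell precursors of the mouse need, read 277, 283, 269 and 279 CPM in the cerebellum against 20.3 to 43.6 CPM (median 32), and Chd3, a remodeller of the NuRD complex, 229, 219, 219 and 202 CPM against 871 to 1231 CPM (median 1036). The 2 relatives were thus separated from the forebrain in opposite directions in all 4 libraries, by 2.93 to 3.56 (largest SE 0.11, largest adjusted p 1.57e-15) and -2.35 to -2.05 (largest SE 0.06, largest adjusted p 1.25e-16). Dnmt3a, which methylates DNA, was higher by 0.99 to 1.22 (largest SE 0.14). Tet3, which oxidises that mark, was higher by 1.05 to 1.23 (largest SE 0.13). Chd5, another NuRD remodeller, was lower, with log2 differences of -2.23 to -1.82 (largest SE 0.07). Of 14 NeuroD, Nfi, Mef2 and Ebf factors 7 were higher (50%, against 22% of all genes) and 2 lower (14.3%, against 22.9%). Mef2c, a MADS factor of forebrain neurons, was lower, with log2 differences of -4.21 to -2.31 (largest SE 0.12).

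Of 23 neuronal RNA-binding proteins 8 were higher (34.8%, against 22% of all genes) and 9 lower (39.1%, against 22.9%), with relatives on both sides. Rbfox3, the NeuN antigen and a splicing factor, was higher by 1.05 to 1.82 (largest SE 0.07). Nova1, a splicing factor, was higher by 1.05 to 1.26 (largest SE 0.08). Nova2, its relative, was lower, with log2 differences of -1.18 to -1.04 (largest SE 0.15). Of 18 thyroid hormone and retinoid genes 4 were higher (22.2%, near the 22% of all genes) and 9 lower (50%, against 22.9%). By library totals alone 7 were higher and 7 lower. Thrb, a thyroid hormone receptor, was lower, with log2 differences of -2.93 to -1.98 (largest SE 0.10). Crym, which binds the hormone, was lower, with log2 differences of -4.29 to -3.27 (largest SE 0.20). Hr, a corepressor that the hormone induces in rat cerebellum, was higher by 1.73 to 3.36 (largest SE 0.11). Of 15 neurofilament and axon genes 6 were higher (40%, against 22% of all genes) and 3 lower (20%, near the 22.9% of all genes). Nefh, the heavy neurofilament chain, was higher by 0.63 to 1.55 (largest SE 0.12). Nefl, the light chain, was lower, with log2 differences of -1.61 to -0.62 (largest SE 0.09). Map2, a dendritic microtubule protein, was lower, with log2 differences of -2.03 to -1.70 (largest SE 0.11).

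By annotation, 3467 of 15207 protein-coding genes were higher (22.8%) and 3546 lower (23.3%). Of 407 tested long intergenic noncoding RNAs 49 were higher (12%) and 100 lower (24.6%). Past the 4-fold limit were 5.16% higher and 12.5% lower, against 1.95% and 4.57% of protein-coding genes. Smaller classes varied too, with 5.08% and 3.39% of 59 processed transcripts, 0% and 10% of 30 antisense RNAs and 2.34% and 0% of 128 snoRNAs. Sparse genes can pass the filter through the region where they are high, so these shares describe the genes that passed. In the blast libraries, which the rule did not use, the same test called 3887 genes higher and 3898 lower. These held 3220 of the 3615 higher sham genes (89.1%) and 3303 of the 3761 lower ones (87.8%), and 0 genes were called in the opposite direction.

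Among the deposited gene models, Pcp2 spans chromosome 12 from 2172378 to 2174131, Gabra6 chromosome 10 from 27847439 to 27862868, Lhx2 chromosome 3 from 22640545 to 22658446 and Ddn chromosome 7 from 140479711 to 140483693, all annotated as protein-coding. These positions hold for the authors' build, which the sources used here do not name.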

How the data were processed

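The authors deposited 1 table per brain region, whose count columns hold raw integer read counts, per the file headers. Per the labels' protocols, total RNA was extracted with Qiazol and RNeasy columns and made into libraries with a NEBNext Ultra kit; the submitters' processing notes name CASAVA. Aligner, counter, genome build, annotation release and strand setting were each not given in the sources used here. Antisense partners therefore cannot be told apart. The 4 tables were joined by Ensembl ID, since 24 gene names had been turned into dates. A gene missing from a table was taken as 0 counts. Where a region is given as 0 counts, as for Lhx2 in the cerebellum, a deposited 0 and a missing row are not told apart here. Ratios against the floor for such regions rest on that choice. A total of 72 further columns of per-library values, normalized signal and FPKM, were not used. The gene length used for shares is the authors' deposited value.

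The 18 sham libraries were fitted in 1 model with edgeR 4.0.16 in R 4.3.3 (filterByExpr, TMM, glmQLFit and glmQLFTest on region), with Benjamini-Hochberg adjustment over all 16431 genes tested and a threshold of 0.05. The p printed for a gene is the largest of its 3. Replicates were distinct libraries, since the smallest chi-square per degree of freedom between any 2 of a group was 7.839. Counting intervals are 95% exact ones and cover counting error only, as do floors of 3 counts. Counts were also simulated for the 18 sham libraries with the same mean in all regions, and 16234 genes passed the filter. Of genes with at least 1 CPM, 67 were changed 1.5-fold, 67 2-fold and 66 4-fold in the cerebellum. The rule recovered 53.7%, 77.6% and 98.5% of them. In the data far more genes differed and sparser genes were tested too, so these are not recovery rates of the real comparison. Alternatives used DESeq2 1.42.0, other scalings, filters and fits, each library left out, the blast libraries and, added after seeing the data, a choroid plexus score as covariate and cerebellar library 16 alone.

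The 43 gene lists hold 771 distinct genes, of which 28 were in no table, 22 did not pass the filter on low counts and 721 were tested. The comparison, its members and the lists were chosen with earlier results of these data known, so list counts are a description. Named genes were a set given by name, the 15 genes per direction with the largest smallest difference among those with at least 10 CPM, and up to 4 genes per list by the same measure; other list members were named after their values were seen. Some genes that the rule or a list holds are counted but not reported here by name. RefSeq promoter sequences of the build GRCr8 were matched by symbol.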

Additional observations from a re-analysis of the deposited data

Results flagged for a closer look

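In 18 of 176 groups of 4 or 5 libraries checked (10.2%), the highest or lowest library stood apart from the rest of its region by Dixon's test. Chance alone flags about 5% of groups with a normal spread, which levels near 0 do not have. A library that alone holds counts is flagged by construction, so the 10.2% is no sign of an excess. Most flagged groups concern a forebrain level that is low beside the cerebellar one. Cbln1 reached 24.3 CPM in amygdala library 13, the next being 12.9, and 4.13 in hippocampus library 18. Pcp2 reached 0.103 CPM in amygdala library 13 and Skor2 0.061 in hippocampus library 16, with 0 counts in the other libraries of the region. Eomes stood high at 4.91 CPM in anterior cortex library 13 and at 0.363 in amygdala library 16, and low at 0.067 in hippocampus library 18. Gdf10 was lowest, at 2.26 CPM, in anterior cortex library 12, and Syt2 highest, at 8.47, in hippocampus library 18.

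Anterior cortex library 16 held the highest levels of both Nrgn, at 1930.0 CPM against 1460.0 for the next, and Cck, at 472 against 316. Bcl11b was lowest in hippocampus library 12, at 154.0 CPM against 189.0 for the next. That library held Ttr at 464 CPM and a choroid plexus sum of 548 CPM, the next library being at 54.5, and also the highest hippocampal level of Lmx1a, at 0.983 CPM against 0.341 for the next. Within the cerebellum, Gria4 was lowest at 513 CPM in library 13, and library 10 was highest for Slc1a2 at 68.9 CPM and for Gad1 at 523. In each of these 3 cases all 4 cerebellar libraries still lay on the same side of every forebrain library.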

How the results depend on the processing

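The counts of cerebellar genes, 3615 higher and 3761 lower, kept within 1.5 times of these values under every alternative but 1: tested against a 2-fold difference rather than 0 (edgeR's glmTreat, log2 fold 1), 608 genes were higher and 1182 lower, which by construction is a stricter question. DESeq2 gave 3687 and 3783, its size factors in edgeR 3650 and 3725, library totals alone 4782 and 2927, no filter 3611 and 3624, genes with a row for every region 3747 and 3633, and separate fits per pair of regions 3717 and 3391. Leaving out each library in turn gave 3489 to 3753 higher and 3431 to 3764 lower genes, and 336 to 365 and 765 to 801 past the 4-fold limit. By region, leaving out a library gave 4859 to 5214 higher and 4947 to 5379 lower genes against hippocampus, 4781 to 5281 and 5142 to 5638 against amygdala, and 5231 to 5680 and 5385 to 5837 against anterior cortex.

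With the library number as a replicate block 3559 genes were higher and 3733 lower, of which 3467 and 3627 were shared with the fit without it. Libraries of the same number correlated at 0.07 to 0.16 over 11 pairs of regions and numbers, 6 of them over 0.1, and 9 correlated best with their own number; the labels do not say that numbers pair libraries, so the block is given as an alternative only.

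Of 254 genes followed singly, 252 kept their direction and side of the threshold with DESeq2, 245 with library totals alone and 235 in the blast libraries. With cerebellar library 16 alone the number was 227, with 24 calls lost and 3 directions reversed, and with the choroid plexus score as covariate 237, with 14 lost and 3 reversed; both choices were added after seeing the data. The 3 are choroid plexus genes, whose difference the score and the choice of the library with the lowest choroid plexus level remove by construction, so these values test nothing about them. With the choroid plexus score as covariate the mean log2 difference became -0.95 for F5, -0.676 for Sostdc1 and -0.254 for Ttr, none of them called. With cerebellar library 16 alone, whose spread is assumed to be that of the other groups, it became -3.27 for F5, -5.93 for Sostdc1 and -2.12 for Ttr. Slc17a6, which was not called in the sham fit either, ranged from -0.0447, without cerebellar library 18, to 0.166 when libraries were left out, and was -0.012 in the blast libraries. Among the genes the text names, Cplx2 (mean log2 difference -0.63, then -0.45 with the score and -0.503 with library 16) and Gal (2.44, then 1.75 and 1.6) were not called under either choice, and Kit (1.67, then 1.69) and Lmx1a (4.43, then 3.11) not with library 16 alone, where 1 library makes up the cerebellar arm. At low counts depth limits precision: ratios of the sparse factors have wide counting intervals.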
